A study of Mus musculus with 3 samples.

Results

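The miR-23, miR-27 and miR-24 clusters are 2 groups of miRNA genes in the mouse genome, each of which makes 1 miRNA of each of the 3 families. The a cluster holds Mir23a, Mir27a and Mir24-2, and the b cluster holds Mir23b, Mir27b and Mir24-1. Their 3′ arms give 5 distinct mature miRNAs, miR-23a-3p, miR-27a-3p, miR-23b-3p, miR-27b-3p and miR-24-3p. These 5 were chosen by name, as the products of the 6 precursors, among 419 miRNA entries measured in all. Small RNAs of 18 to 30 nt were read from the liver of mice of the inbred strain C57BL/6, 4 weeks after they received a self-complementary adeno-associated virus of serotype 9 (scAAV9). In the group called TuD-miR-122 the vector expressed a Tough Decoy (TuD), an inhibitor RNA made in the cell that holds sites for a chosen miRNA, here miR-122. In the TuD-let-7 group the TuD was directed at let-7. In the mock group the vector expressed no TuD, so the mock liver had also received the virus. The study asked how such decoys bear on the stability and integrity of miRNAs, and none of the 5 miRNAs was a target of either decoy. Each group had 1 library, and the sources used here do not give the sex or age of the mice, nor how many livers stood behind a library. No test between groups was therefore possible, and all intervals below are 95% intervals that cover counting error only. Scale, calls and assignment are explained where first used.

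A miRNA is cut from a hairpin precursor as a short duplex, 1 strand of which is loaded into an Argonaute protein. It then guides the protein to mRNAs that pair with its seed, bases 2 to 8. The enzymes that trim the 3′ end, or add adenosines or uridines to it, leave isoforms that can be counted in small RNA reads. miR-27 is known as a regulator of lipid metabolism in liver and fat cells. It is also known for its degradation in mouse cells infected with murine cytomegalovirus, whose m169 transcript pairs with it. miR-23 is known to repress glutaminase in human B cells, and miR-23 and miR-27 together to act in the growth of blood vessels. miR-24 is known as a repressor of cell cycle genes in differentiating cells.

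The mature sequences are shown first because the results turn on a single base that tells the paralogs apart and on what follows the last base. Entries for 4 of the 5 miRNAs were found in the RefSeq table (GRCm38.p6), and their seeds are in capitals.
miR-27a-3p: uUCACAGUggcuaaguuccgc
miR-27b-3p: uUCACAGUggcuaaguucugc
miR-23a-3p: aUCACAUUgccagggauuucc
miR-24-3p: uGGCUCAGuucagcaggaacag
miR-27a-3p and miR-27b-3p share the seed UCACAGU and differ by C19U, counted from the 5′ end of the mature RNA with the base of miR-27a-3p first. miR-23a-3p has the seed UCACAUU, and it differs from miR-23b-3p at position 19 among the first 21 nt. The seed of miR-24-3p, GGCUCAG, is unrelated to the other seeds. A read that stops before position 19 cannot be given to an a or a b member. Mir24-2 and Mir24-1 yield the same miR-24-3p, and its reads were not told apart by precursor.

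The hairpins are given with their 3p arm in capitals, since a tail was judged against the bases that follow the arm.
Mir27a: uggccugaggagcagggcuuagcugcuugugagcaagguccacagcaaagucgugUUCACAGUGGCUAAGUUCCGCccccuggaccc
Mir27b: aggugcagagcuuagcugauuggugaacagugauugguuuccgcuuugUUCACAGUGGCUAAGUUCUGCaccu
Mir24-2: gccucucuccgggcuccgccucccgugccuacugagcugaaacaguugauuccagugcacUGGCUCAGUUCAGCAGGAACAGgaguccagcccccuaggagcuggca
Mir24-1: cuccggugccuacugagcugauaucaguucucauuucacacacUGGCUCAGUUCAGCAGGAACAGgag
The a cluster lies on the plus strand of chr8:84208518-84208921 (GRCm38), a span of 404 nt. Mir23a (ENSMUSG00000065611.1, chr8:84208518-84208592) and Mir27a (ENSMUSG00000065444.1, chr8:84208672-84208758) are intergenic in the annotation, and Mir24-2 (ENSMUSG00000065541.1, chr8:84208815-84208921) is overlapped in part by an exon of the long noncoding RNA gene Gm26532. The b cluster lies on the plus strand of chr13:63300484-63301275, a span of 792 nt inside the protein-coding gene 2010111I01Rik. There, Mir23b (ENSMUSG00000065599.2, chr13:63300484-63300557) is intronic. Mir27b (ENSMUSG00000065475.2, chr13:63300712-63300784) is covered by an exon of an isoform of that gene annotated for nonsense-mediated decay. Mir24-1 (ENSMUSG00000105904.1, chr13:63301208-63301275) is covered by exons of isoforms of that type and of the types processed transcript and retained intron. No coding sequence overlaps either precursor. All 3 precursors of the b cluster also lie in an intron of Fancc on the opposite strand. The minus strand carries Mir3074-2 at Mir24-2 and Mir3074-1 at Mir24-1.

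The libraries held 3681585 reads (TuD-miR-122), 2066892 reads (TuD-let-7) and 3450317 reads (mock), of which 72.0%, 73.1% and 78.5% were assigned to miRNAs in the same order. Levels are given as RPM, reads per 1000000 non-target miRNA reads. These are all miRNA reads other than those of miR-122 and let-7 loci, and they numbered 1452487, 487707 and 1377806. The TuD-let-7 library was thus the shallowest on this scale, and 3 reads stood for 6.15 RPM in it, against 2.07 RPM in TuD-miR-122 and 2.18 RPM in mock. It also held more reads with a mismatch. Allowing 1 mismatch in the first 18 nt added 8.14%, 23.3% and 7.31% to the non-target miRNA reads of TuD-miR-122, TuD-let-7 and mock. Scaling to all reads in place of non-target miRNA reads multiplies every ratio of TuD-let-7 to mock by 0.591, a shift of -0.76 in log2, and every ratio of TuD-miR-122 to mock by 0.988. The hepatocyte miRNAs on a marker list were read in all 3 livers, at 1020451, 1049392 and 1192518 reads. Among them is miR-122, a target here, whose reads the non-target scale leaves out. On that scale the summed list stood at 0.812 of mock in TuD-miR-122 and at 2.49 in TuD-let-7. Ratios of its single miRNAs ran from 0.800 to 1.41 in TuD-miR-122 and from 0.864 to 2.70 in TuD-let-7.

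All 5 miRNAs were abundant liver miRNAs, and together with the reads shared between paralogs they made up 3.35% of the non-target reads in TuD-miR-122, 2.94% in TuD-let-7 and 3.52% in mock. The b member was read more often than the a member of both families in every library. A read is 1 whole miRNA, so no length enters the level, but miRNAs differ in how well they enter a library, and an order of levels between miRNAs holds for reads only.

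miR-27a-3p had 3798 RPM (3699 to 3900) in TuD-miR-122 and 1634 RPM (1523 to 1752) in TuD-let-7, against 3874 RPM (3771 to 3979) in mock. The TuD-let-7 library stood apart from both others, whose intervals overlapped. miR-23a-3p, made from the hairpin just upstream, had 3512 RPM (3416 to 3609) in TuD-miR-122 and 2916 RPM (2766 to 3071) in TuD-let-7, against 3285 RPM (3190 to 3382) in mock. Its highest level was in TuD-miR-122 and its lowest in TuD-let-7, within a much narrower range than that of miR-27a-3p.

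miR-27b-3p, the most abundant of the 5 in TuD-miR-122 and mock, had 11615 RPM (11441 to 11790) in TuD-miR-122 and 9957 RPM (9680 to 10239) in TuD-let-7, against 13421 RPM (13229 to 13614) in mock. For miR-23b-3p the levels were 4143 RPM (4039 to 4249) in TuD-miR-122 and 3680 RPM (3512 to 3854) in TuD-let-7, against 5410 RPM (5288 to 5534) in mock. Both miRNAs of the b cluster were therefore highest in mock and lowest in TuD-let-7, with no overlap of intervals. miR-24-3p, to which both clusters contribute, had 10011 RPM (9850 to 10174) in TuD-miR-122 and 10994 RPM (10703 to 11291) in TuD-let-7, against 8934 RPM (8777 to 9092) in mock. It alone of the 5 was lowest in mock, and on the scale of all reads it too was below mock in TuD-let-7. miR-24-3p and miR-27b-3p exchanged the first place between TuD-let-7 and the other libraries, and miR-23a-3p and miR-27a-3p exchanged the last. Within a library no neighbours in the order overlapped.

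**Figure D1:**
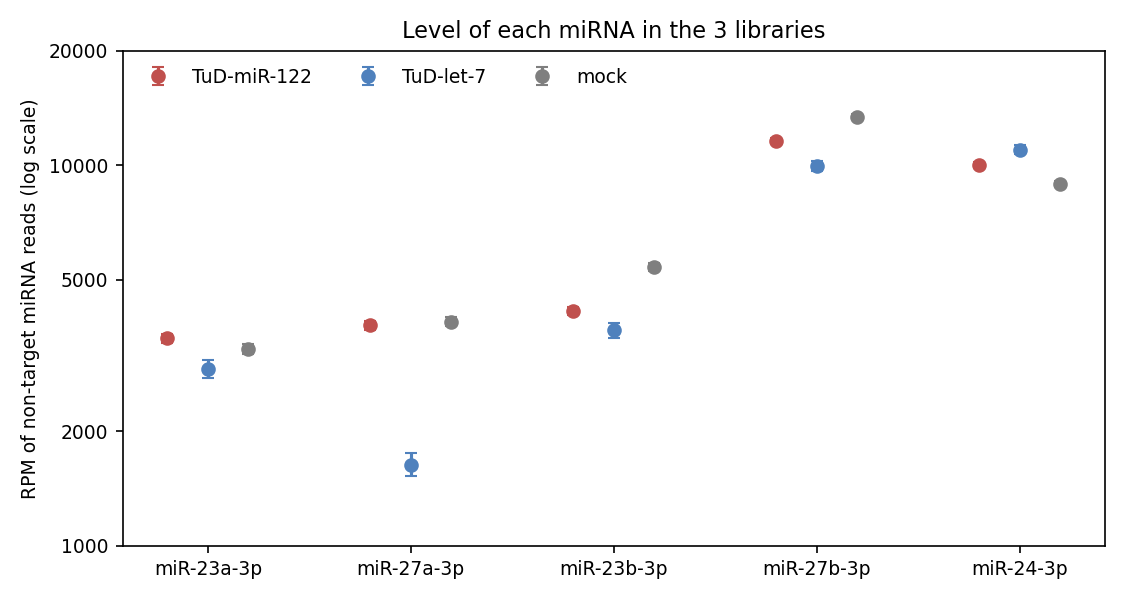
Level of each of the 5 miRNAs in RPM of non-target miRNA reads (log scale) in the TuD-miR-122, TuD-let-7 and mock libraries, 1 library each, with 95% counting intervals. miR-27a-3p stands at 1634 RPM in TuD-let-7, against 3874 RPM in mock, while miR-24-3p is lowest in mock at 8934 RPM on this scale.

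Against mock, the miRNAs of the b cluster were somewhat lower in TuD-miR-122 and those of the a cluster were not. The ratio to mock was 0.766 (0.740 to 0.792) for miR-23b-3p and 0.865 (0.848 to 0.884) for miR-27b-3p. Their summed reads were at 0.837 (0.822 to 0.852) of mock. For miR-23a-3p the ratio was 1.07 (1.03 to 1.11) and for miR-27a-3p 0.980 (0.944 to 1.02), with 1.02 (0.993 to 1.05) for their sum. miR-24-3p was at 1.12 (1.09 to 1.15). These differences were small beside the spread of all non-target miRNAs with at least 100 reads over both libraries. Of 227 such miRNAs, 42 (18.5%) were called, meaning that their interval lay wholly above 2 (31, or 13.7%) or below 0.5 (11, or 4.85%), and 0 of the 5 miRNAs were. The median ratio was 0.980 for the 5 miRNAs and 0.986 for the 227, with quartiles of 0.799 and 1.29 for the 227. Only miR-23b-3p lay outside those quartiles.

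In TuD-let-7, miR-27a-3p was the 1 member past the 2-fold call, at 0.422 (0.391 to 0.454) of mock. Of 193 non-target miRNAs, 8 (4.15%) were called lower and 7 (3.63%) higher, 7.77% in all, and 9 had a lower ratio than miR-27a-3p. Scaled to all reads, miR-23b-3p at 0.402 (0.382 to 0.423) and miR-27b-3p at 0.438 (0.425 to 0.452) were called lower too, 3 members beside 38 (19.7%) of the 193. On the scale of non-target reads, miR-23a-3p, the neighbour of miR-27a-3p, was at 0.888 (0.836 to 0.942). The sum of miR-23a-3p and miR-27a-3p was at 0.636 (0.607 to 0.666). On the same scale the b cluster had ratios of 0.680 (0.646 to 0.716) for miR-23b-3p and 0.742 (0.719 to 0.766) for miR-27b-3p. Their sum was at 0.724 (0.705 to 0.744). miR-24-3p was at 1.23 (1.19 to 1.27), a direction that turns on the scale of all reads, where its ratio was 0.727. The median ratio was 0.742 for the 5 miRNAs and 0.983 for the 193, whose quartiles were 0.743 and 1.33. miR-27a-3p, miR-23b-3p and miR-27b-3p thus lay below the lower quartile. The highest ratio among the 5 was 2.92 times the lowest in TuD-let-7, against 1.46 times in TuD-miR-122, a spread that no scaling of a whole library can change.

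Both comparisons use the same mock library, so an unusual value in mock would enter both. Set against each other, TuD-miR-122 over TuD-let-7 gave a ratio of 2.32 (2.16 to 2.51) for miR-27a-3p, again the 1 member called, beside 37 (17.4%) of 213 non-target miRNAs called higher, 6 (2.82%) called lower and 20.2% in either direction. The other ratios of TuD-miR-122 to TuD-let-7 were 1.20 (1.14 to 1.28) for miR-23a-3p, 1.13 (1.07 to 1.19) for miR-23b-3p, 1.17 (1.13 to 1.20) for miR-27b-3p and 0.911 (0.882 to 0.940) for miR-24-3p. The low miR-27a-3p of the TuD-let-7 library therefore did not rest on mock. In whole liver, fewer cells of a type and less RNA per cell cannot be told apart.

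**Figure D2:**
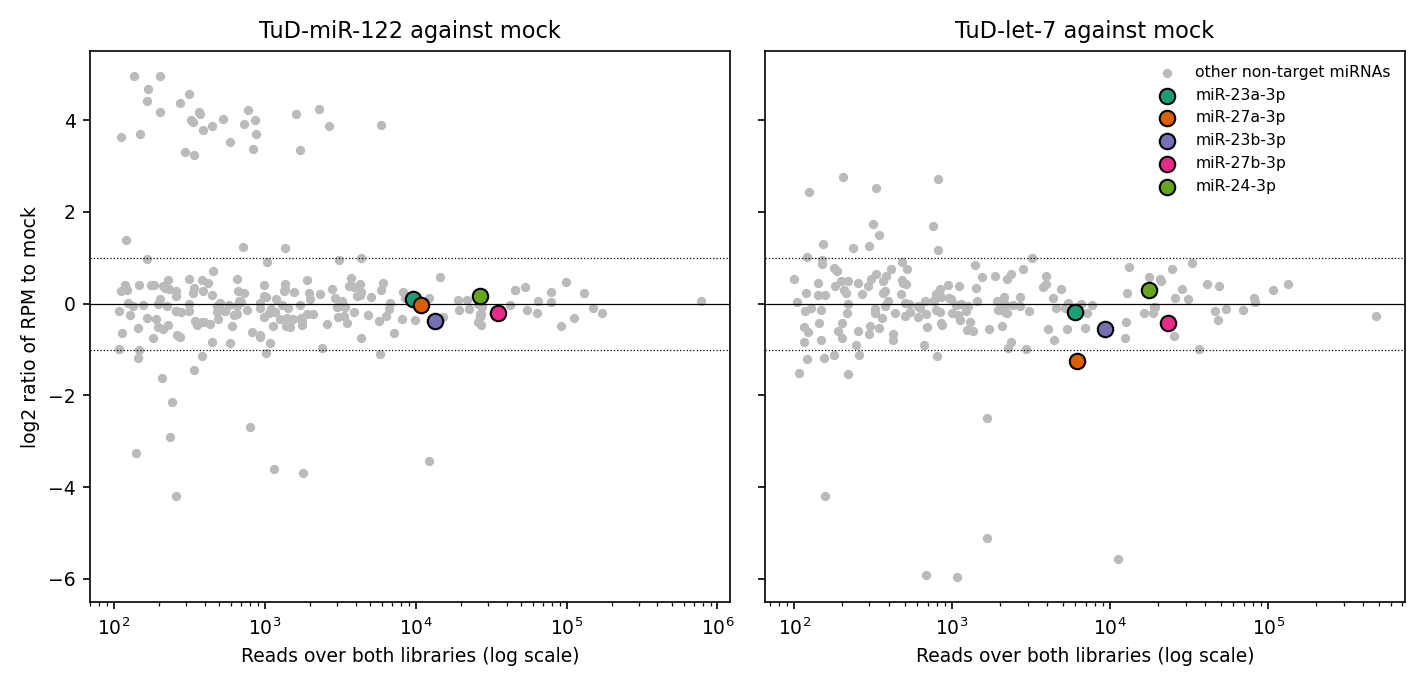
Log2 ratio of RPM to mock against the reads over both libraries (log scale) for all non-target miRNAs with at least 100 reads, TuD-miR-122 on the left and TuD-let-7 on the right. Coloured points are the 5 miRNAs, grey points the others and dotted lines 2-fold; in TuD-let-7 miR-27a-3p lies below the lower line at a ratio of 0.422 and miR-24-3p above 0 at 1.23, though at 0.727 when scaled to all reads.

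How far the paralogs were told apart bears on all a and b values. Reads that fitted both members of a pair equally made up 2.31%, 1.41% and 1.26% of miR-23 reads in TuD-miR-122, TuD-let-7 and mock, and 1.24%, 1.14% and 1.07% of miR-27 reads. Among reads told apart, miR-23b-3p made up 54.1% (53.2 to 55.1) of miR-23 in TuD-miR-122 and 55.8% (54.1 to 57.5) in TuD-let-7, against 62.2% (61.3 to 63.1) in mock. Both decoy libraries were below mock, with differences of -8.10 and -6.42 percentage points, and their own intervals overlapped. For miR-27 the share of miR-27b-3p was 75.4% (74.8 to 75.9) in TuD-miR-122 and 85.9% (84.97 to 86.8) in TuD-let-7, against 77.6% (77.1 to 78.1) in mock. In reads per read, miR-27b-3p was 3.06 times miR-27a-3p in TuD-miR-122 and 6.09 times in TuD-let-7, against 3.46 times in mock. The b share thus shifted down in both families in TuD-miR-122, and in opposite directions in TuD-let-7.

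The shared reads were too few to set these shares. Giving all of them to the a member or all to the b member kept miR-27b-3p between 84.9% and 86.1% of miR-27 in TuD-let-7, against 76.8% to 77.8% in mock. Among reads that matched on both sides of position 19, those with neither paralog's base there made up 0.130%, 0.495% and 0.246% of miR-27 in TuD-miR-122, TuD-let-7 and mock, and 2.02%, 0.288% and 1.08% of miR-23. How often an error turns the base of an a member into that of its b member was not measured, and its part in the b share was not tested. Between 94.1% and 99.8% of the reads that began within 2 nt of the expected 5′ end of the 5 miRNAs began exactly there. These are reads without a mismatch. With 1 mismatch allowed, 189 reads of miR-23b-3p and 116 reads of miR-23a-3p in TuD-let-7 had it at position 6, within the seed, beside 1795 and 1422 exact reads. In mock such reads numbered 145 and 101, beside 7454 and 4526 exact reads. The most frequent position of the mismatch was not the same throughout. For both miR-23 members in TuD-miR-122 it was position 14, with 300 and 287 reads. In TuD-let-7 it was position 10 for miR-27a-3p and miR-27b-3p and position 18 for miR-24-3p.

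The 5p arms of the hairpins were nearly absent. They give a view of the hairpin that does not rest on the 3p arm. miR-27a-5p was counted in 25 reads in TuD-miR-122 and 12 reads in TuD-let-7, against 23 reads in mock. In RPM that is 17.2, 24.6 and 16.7, at counts too low for a firm ratio, and on the scale of all reads TuD-let-7 was below mock. There were 221 reads of miR-27a-3p per read of miR-27a-5p under TuD-miR-122 and 66.4 under TuD-let-7, against 232 in mock. For miR-27b-5p the reads were 20 and 11, against 19 in mock, and for miR-23b-5p 11 and 3, against 7 in mock. miR-23a-5p had 2 reads, 1 read and 1 read in TuD-miR-122, TuD-let-7 and mock. miR-24-2-5p was read once, in TuD-miR-122, miR-24-1-5p in 0 reads of any library, and miR-3074-5p in 1 read each of TuD-miR-122 and mock. Summed, the 3p miRNAs had 824 reads (638 to 1082) per read of an opposite arm in TuD-miR-122 and 531 (365 to 806) in TuD-let-7, against 971 (736 to 1308) in mock, intervals that overlap.

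The integrity of the 5 miRNAs was read from their 3′ ends. A tail is a 3′ end of up to 5 nt that departs from the precursor, including any error of base calling. A read whose matching part is under 21 nt is called trimmed. Reads of miR-23 and miR-27 that match under 19 nt are shared and enter neither a tailed nor a trimmed share. Trimmed reads of these 4 miRNAs thus match for 19 or 20 nt, and those under 20 nt for 19 nt. For miR-24-3p all reads from 16 matching nt are counted, so its trimmed share is not on the same footing. The tailed shares of the 5 miRNAs lay further apart than those of any 1 miRNA did between libraries, and each is relative to its own precursor. Tailed reads made up 16.6%, 15.6% and 17.2% of miR-23a-3p in TuD-miR-122, TuD-let-7 and mock, and 72.6%, 76.4% and 78.1% of miR-27a-3p. In the same order they made up 47.2%, 51.5% and 57.3% of miR-23b-3p, 36.1%, 39.1% and 37.1% of miR-27b-3p, and 66.9%, 65.1% and 67.7% of miR-24-3p. The hairpins go on after position 21 with c in Mir27a and a in Mir27b, so that an adenosine there counts as a tail in miR-27a-3p and as a match in miR-27b-3p, and their tailed shares cannot be set against each other. Adenosine led among the tails of miR-27a-3p, where tails of only A stood on 38.8%, 43.8% and 37.1% of reads. Uridine led in the other 4 miRNAs in mock, with tails of only T, which stands for uridine in the reads, on 9.54% of miR-23a-3p, 51.4% of miR-23b-3p, 23.9% of miR-27b-3p and 43.6% of miR-24-3p. In TuD-let-7 tails of only A and of only T were near each other in miR-23a-3p, on 6.40% (5.18 to 7.80) and 5.91% (4.74 to 7.26) of reads.

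**Figure D3:**
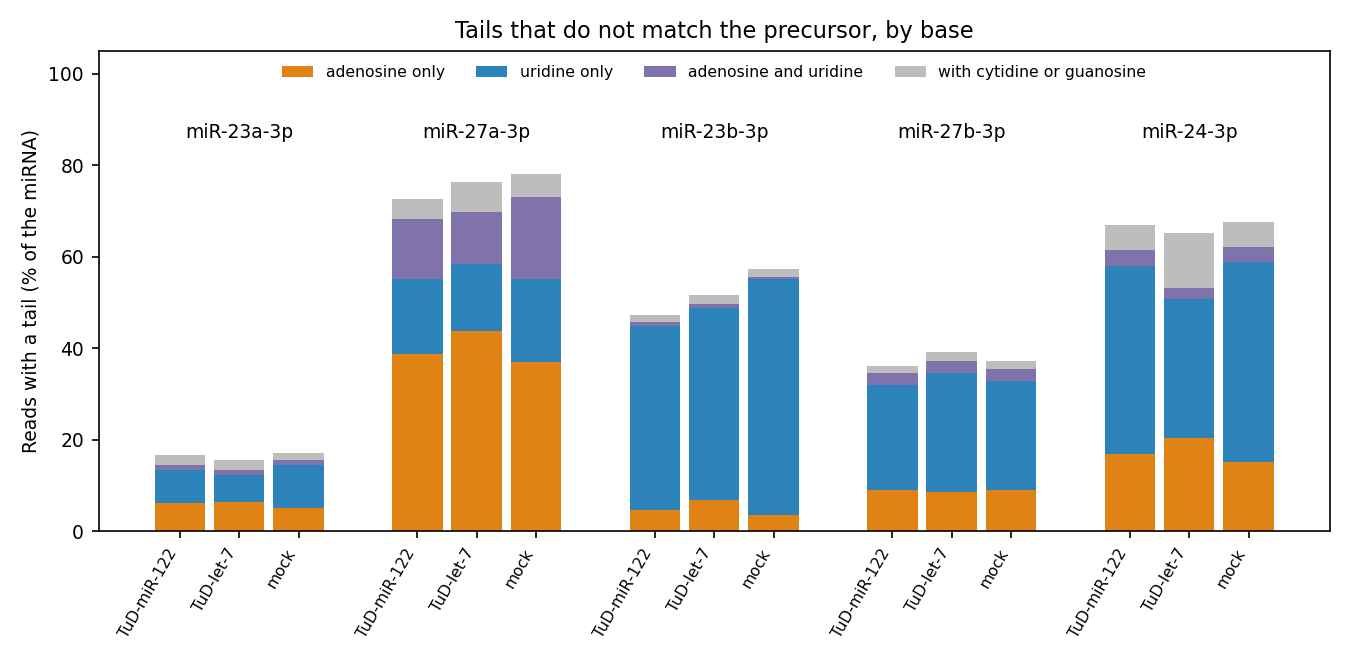
Share of the reads of each miRNA that carry a 3′ tail not matching the precursor, split by the bases of the tail, in TuD-miR-122, TuD-let-7 and mock. miR-27a-3p has the largest tailed share (72.6%, 76.4% and 78.1%), though each share is relative to its own precursor. Adenosine is the leading tail of miR-27a-3p in every library, with tails of only A on 38.8%, 43.8% and 37.1% of reads. In miR-23b-3p the blue uridine part is largest in mock (51.4%).

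Tails of only uridine were lower than mock in both decoy libraries for 4 of the 5 miRNAs. This and the later comparisons of 3′ ends use the same mock library for both decoys, so an unusual value in mock would enter both. The difference from mock was -2.47 points (-3.60 to -1.35) in TuD-miR-122 and -3.64 points (-5.11 to -2.04) in TuD-let-7 for miR-23a-3p. For miR-27a-3p it was -1.67 points (-3.11 to -0.240) and -3.50 points (-6.11 to -0.671). For miR-23b-3p it was -11.3 points (-12.97 to -9.59) and -9.35 points (-11.9 to -6.76). For miR-24-3p it was -2.46 points (-3.65 to -1.27) and -13.1 points (-14.7 to -11.6). miR-27b-3p differed, at -0.784 points (-1.67 to 0.104) and 2.09 points (0.716 to 3.49). Among the non-target miRNAs that had at least 1000 reads in each of the compared libraries, the median difference was 0.195 points in TuD-miR-122 (74 miRNAs) and -0.186 points in TuD-let-7 (49 miRNAs). miR-23b-3p had the lowest value of the 74 in TuD-miR-122 and miR-24-3p the lowest of the 49 in TuD-let-7. miR-27a-3p, with 797 reads in TuD-let-7, is not among the 49.

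In miR-23b-3p nearly the whole difference lay in 1 isoform, 23 matching nt followed by a single uridine. It made up 33.6% (32.4 to 34.8) of miR-23b-3p reads in TuD-miR-122 and 35.4% (33.2 to 37.6) in TuD-let-7, against 45.1% (44.0 to 46.3) in mock. In RPM it was at 1393 under TuD-miR-122 and 1302 under TuD-let-7, against 2442 in mock, which gives ratios of 0.570 (0.539 to 0.603) and 0.533 (0.489 to 0.580). All other isoforms of miR-23b-3p together were at 0.927 (0.887 to 0.968) and 0.801 (0.750 to 0.856) of mock. The untailed isoform of 22 nt made up 32.4% under TuD-miR-122 and 30.7% under TuD-let-7, against 23.03% in mock. Where 23 nt matched, a single uridine was the rule, on 93.7%, 93.1% and 95.1% of the reads that were either untailed or carried 1 uridine, whereas at 22 nt it stood on 4.36%, 5.16% and 9.30%. With the 23-nt isoform with uridine left out, a setting added once the data had been seen, the tailed share was 20.5% (19.3 to 21.8) in TuD-miR-122 and 25% (22.5 to 27.6) in TuD-let-7, against 22.2% (20.9 to 23.5) in mock. With all isoforms the differences in tailing were -10.1 and -5.77 points, and without that isoform -1.66 and 2.84 points. The low total of miR-23b-3p in TuD-miR-122 sat mainly in the same isoform.

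**Figure D4:**
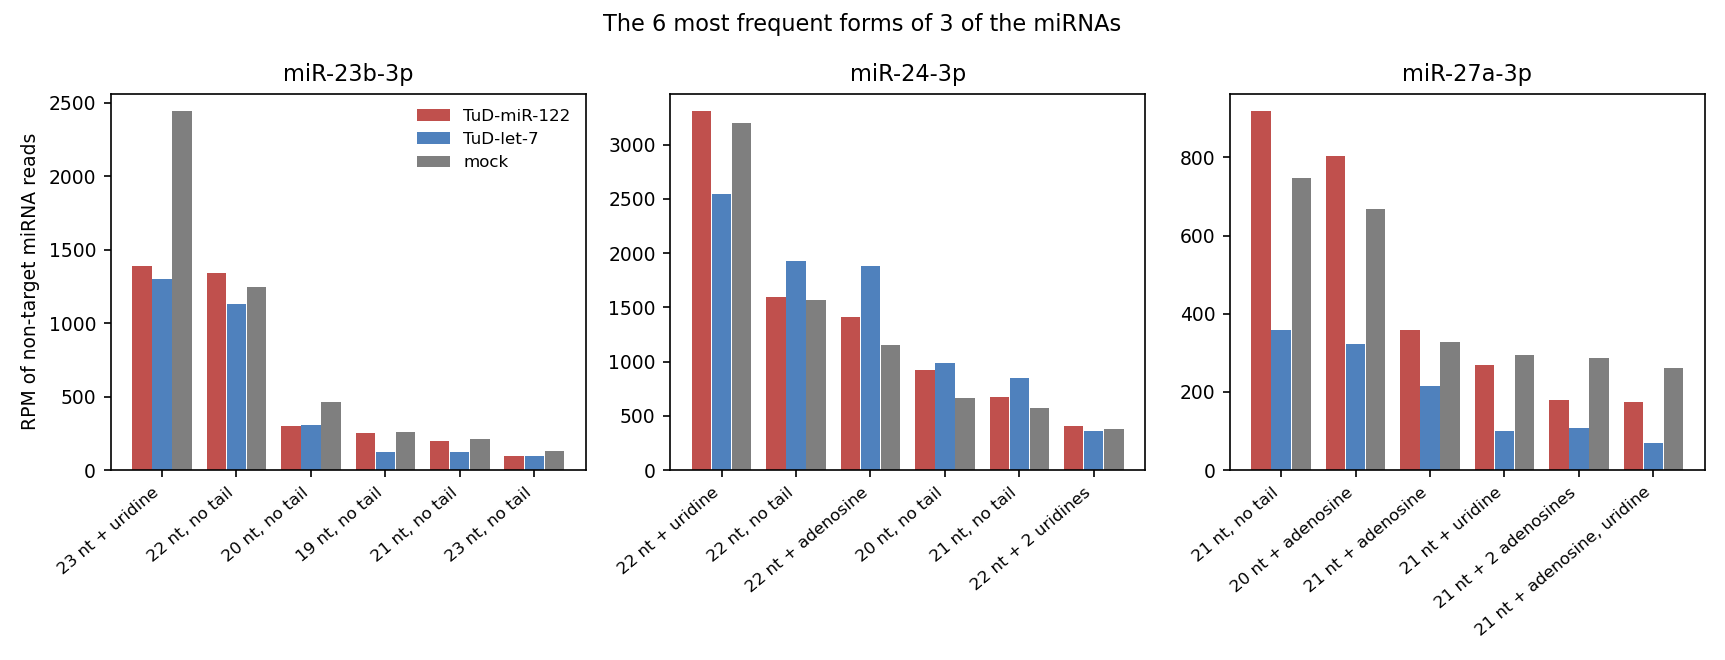
Level in RPM of non-target miRNA reads of the 6 most frequent isoforms of miR-23b-3p, miR-24-3p and miR-27a-3p in TuD-miR-122, TuD-let-7 and mock; labels give the matching length and the added bases. The 23-nt isoform of miR-23b-3p with 1 uridine stands at 1393 and 1302 RPM in the decoy libraries, against 2442 RPM in mock, and every isoform of miR-27a-3p shown is lowest in TuD-let-7.

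In miR-24-3p of TuD-let-7, tails of only uridine were below mock. Tails of only adenosine and tails with cytidine or guanosine were both above it. The full 22-nt RNA with 1 added base gives most of its tails, and the 2 reads are shown with the tail in capitals.
miR-24-3p, 22 nt + uridine: tggctcagttcagcaggaacagT
miR-24-3p, 22 nt + adenosine: tggctcagttcagcaggaacagA
The isoform with uridine made up 33.0% (32.3 to 33.8) of miR-24-3p in TuD-miR-122 and 23.2% (22.1 to 24.3) in TuD-let-7, against 35.8% (34.9 to 36.6) in mock. That with adenosine made up 14.1% (13.5 to 14.7) in TuD-miR-122 and 17.1% (16.1 to 18.2) in TuD-let-7, against 12.9% (12.3 to 13.5) in mock. There were 2.34 reads with the uridine per read with the adenosine under TuD-miR-122 and 1.35 under TuD-let-7, against 2.77 in mock. Tails of only A were 5.16 points (3.91 to 6.43) above mock in TuD-let-7, more than for any other of the 49 miRNAs, and 1.79 points (0.901 to 2.67) above it in TuD-miR-122, where 2 of 74 were higher. The untailed 22-nt read made up 15.96% and 17.5% of all miR-24-3p reads, against 17.5% in mock. Among reads that match for 22 nt, 77.4% (76.6 to 78.2) were tailed in TuD-miR-122 and 72.8% (71.3 to 74.2) in TuD-let-7. In mock 76.4% (75.5 to 77.3) of them were tailed, so TuD-let-7 was below mock without overlap of intervals.

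Trimming of miR-24-3p was above mock in both decoy libraries. Trimmed reads made up 19.4% (18.7 to 20.04) in TuD-miR-122 and 24.6% (23.5 to 25.8) in TuD-let-7, against 16.1% (15.4 to 16.7) in mock. The TuD-let-7 difference of 8.55 points (7.23 to 9.89) was 2.32 points (1.53 to 3.14) for reads that match under 20 nt, and 1.49 points (-0.931 to 3.95), an interval that holds 0, among untailed reads only. Beside the other non-target miRNAs, 72 of 74 had a lower difference in TuD-miR-122, but in TuD-let-7 15 of 49 were higher and the median miRNA stood at 2.73 points. Part of the TuD-let-7 value belongs to reads that match for 20 nt and go on with CG, of which the most frequent is shown.
miR-24-3p, 20 nt + CGU: tggctcagttcagcaggaacCGT
Such reads made up 0.344% of miR-24-3p under TuD-miR-122 and 5.26% under TuD-let-7, against 1.27% in mock, and their second added base equals the precursor base at position 22, so that they differ from it at position 21. They are counted as trimmed and tailed, and whether they are sequencing errors was not tested. Untailed reads under 21 nt made up 10.1% (9.58 to 10.6) of miR-24-3p in TuD-miR-122 and 9.31% (8.54 to 10.1) in TuD-let-7, against 8.13% (7.66 to 8.63) in mock. The differences of 1.94 and 1.17 points were small, with 1 of 74 miRNAs and 0 of 49 above them.

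Trimmed reads of miR-27b-3p made up 32.7% (32.0 to 33.4) in TuD-miR-122 and 26.8% (25.6 to 28.1) in TuD-let-7, against 31.8% (31.2 to 32.5) in mock. The TuD-let-7 difference of -4.99 points was lower than for any other of the 49 miRNAs, and it was -2.49 points past position 19 and -10.2 points among untailed reads only. In TuD-miR-122 the difference of 0.852 points (-0.127 to 1.83) turned to -0.537 points for reads that match under 20 nt and to -2.20 points among untailed reads only. The 19-nt read of miR-27b-3p without a tail, which ends at the base that sets it apart from miR-27a-3p, made up 4.45% of its reads in TuD-miR-122 and 1.44% of them in TuD-let-7, against 4.997% in mock. Its 20-nt read without a tail made up 5.89% of reads in TuD-miR-122 and 3.56% of them in TuD-let-7, against 6.57% in mock. The share for miR-23a-3p was 29.8% (28.5 to 31.1) in TuD-miR-122 and 28.2% (25.9 to 30.6) in TuD-let-7, against 31.3% (30.0 to 32.7) in mock. Among reads that run past position 19 its TuD-let-7 difference turned to 1.39 points (-0.914 to 3.82), an interval that holds 0. For miR-23b-3p trimmed reads made up 21.7% (20.7 to 22.8) in TuD-miR-122 and 21.8% (19.9 to 23.8) in TuD-let-7, against 19.2% (18.3 to 20.1) in mock, a direction that turned when untailed reads alone were counted (-6.13 and -7.12 points); in TuD-miR-122 it also turned past position 19, to -0.34 points. The trimmed share of miR-27a-3p was 42.4% (41.1 to 43.7) in TuD-miR-122 and 41.5% (38.1 to 45.0) in TuD-let-7, against 40.4% (39.1 to 41.7) in mock. The TuD-miR-122 difference was 2.01 points (0.141 to 3.87), an interval that leaves out 0, but -0.030 points for reads that match under 20 nt. The TuD-let-7 difference was 1.16 points (-2.54 to 4.91), an interval that holds 0. No direction of trimming was thus common to all 5.

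**Figure D5:**
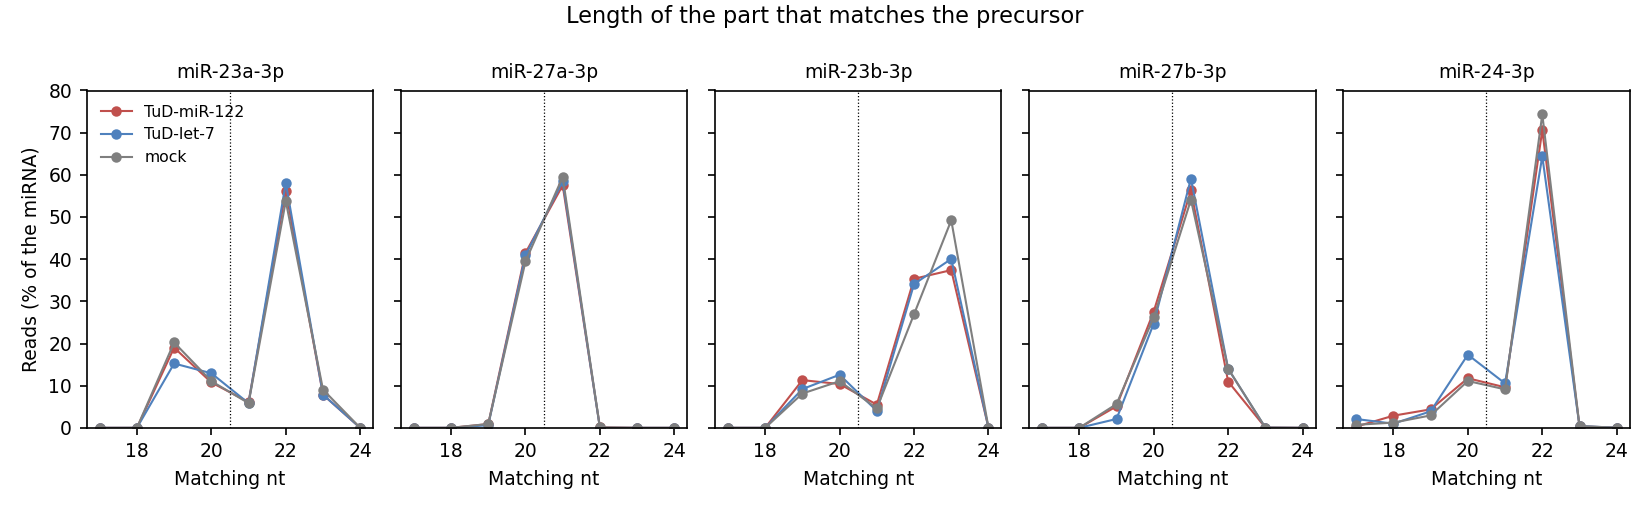
Share of the reads of each miRNA by the length of the part that matches the precursor, in TuD-miR-122, TuD-let-7 and mock; the dotted line separates trimmed reads, under 21 nt. In miR-23b-3p the decoy libraries stand at 37.4% and 40.1% at 23 nt, against 49.2% in mock, and at 35.3% and 34.1% at 22 nt, against 26.9% in mock. In miR-24-3p TuD-let-7 stands at 64.4% at 22 nt, against 74.3% in mock, and at 17.3% at 20 nt, against 11.1% in mock.

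The low miR-27a-3p of TuD-let-7 was seen across its isoforms. The reads below are 4 of its 6 most frequent ones, with tails in capitals.
miR-27a-3p, 21 nt, no tail: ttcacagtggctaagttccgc
miR-27a-3p, 20 nt + adenosine: ttcacagtggctaagttccgA
miR-27a-3p, 21 nt + adenosine: ttcacagtggctaagttccgcA
miR-27a-3p, 21 nt + adenosine, uridine: ttcacagtggctaagttccgcAT
The untailed read had 918 RPM under TuD-miR-122 and 359 RPM under TuD-let-7, against 748 RPM in mock, and that of 20 nt with adenosine 805 and 322 RPM, against 669 RPM. Among its 12 most frequent isoforms, 12 were below mock in TuD-let-7 and 11 of them below 0.5, with ratios from 0.240 to 0.655. The highest ratio was that of the 21-nt read with 1 adenosine, at 0.655 (0.524 to 0.811). By contrast, 7 of the 12 were below mock in TuD-miR-122, where ratios ran from 0.626 to 1.31. The 12 isoforms held 83.4% of the miR-27a-3p reads in TuD-let-7, so they are no support separate from the total ratio of 0.422. The 12 most frequent isoforms of each other miRNA were also compared with mock in TuD-let-7. Below mock were 11 of miR-27b-3p, 8 of miR-23b-3p, 7 of miR-23a-3p and 3 of miR-24-3p. Of these, 2, 2, 2 and 0 in the same order were below 0.5.

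In both decoy libraries, mixed tails of miR-27a-3p were less frequent, and single adenosines more frequent, than in the mock library that both comparisons share. Tails of A with T stood on 12.98% (12.1 to 13.9) of its reads in TuD-miR-122 and 11.4% (9.29 to 13.8) in TuD-let-7, against 17.8% (16.8 to 18.9) in mock. A single A stood on 30.6% (29.4 to 31.9) in TuD-miR-122 and 33.0% (29.7 to 36.4) in TuD-let-7, against 25.8% (24.6 to 26.9) in mock. In TuD-miR-122 the first of these differences was the lowest, and the second the highest, of the 74 miRNAs. Inserts of 23 nt or more likewise made up a smaller share, at 24.02% (22.9 to 25.2) in TuD-miR-122 and 25.7% (22.7 to 28.9) in TuD-let-7, against 33.3% (32.0 to 34.5) in mock. For miR-23b-3p they made up 41.1% and 44.9%, against 54.1% in mock, for miR-23a-3p 12.5% and 11.8%, against 15.2%, for miR-27b-3p 10.1% and 11.8%, against 12.7%, and for miR-24-3p 58.5% and 53.5%, against 60.4%. The share of long inserts was thus below mock for all 5 miRNAs in both decoy libraries, but the difference of miR-27b-3p in TuD-let-7 was -0.983 points (-2.001 to 0.071), an interval that holds 0. In RPM the long inserts of miR-24-3p were above mock, at ratios of 1.09 (1.05 to 1.12) in TuD-miR-122 and 1.09 (1.04 to 1.14) in TuD-let-7. The median difference from mock over non-target miRNAs was also below 0, at -1.56 points in TuD-miR-122 and -1.24 points in TuD-let-7. Whether the selection of sizes on the gel differed between the libraries was not tested.

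For each cluster the summed reads of its miR-23 and miR-27 members were compared with other miRNAs by their 2 ratios to mock. The nearest were picked from the 45 non-target miRNAs that each library held at 1000 reads or more, by the distance of the pair of log2 ratios. miR-24-3p entered neither sum. In TuD-let-7 the a sum, at 0.636, lay between miR-27a-3p at 0.422 and miR-23a-3p at 0.888, and was the ratio of neither. Nearest to the sum of miR-23a-3p and miR-27a-3p was miR-26b-5p, with ratios of 0.980 under TuD-miR-122 and 0.613 under TuD-let-7 and a distance of 0.079. miR-126a-5p of endothelial cells followed, at 1.06 and 0.594, and then miR-26a-1-5p at 1.03 and 0.776. Nearest to the sum of miR-23b-3p and miR-27b-3p was miR-142-3p of blood cells, at 0.905 and 0.752 and a distance of 0.13. miR-148a-3p, abundant in hepatocytes, followed at 0.818 and 0.864, and miR-191-5p at 0.782 and 0.869. Each pair of ratios shares the mock library and rests on 3 libraries.

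Markers of skeletal muscle in both decoy libraries, and of the exocrine pancreas in TuD-miR-122, stood further from mock than the clusters did. The 4 skeletal muscle miRNAs on the list summed to 931 RPM under TuD-miR-122 and 213 RPM under TuD-let-7, against 9831 RPM in mock, and miR-133a-5p was at 0 reads in TuD-let-7, which allows up to 6.15 RPM. The 3 miRNAs of the exocrine pancreas summed to 1086 RPM under TuD-miR-122 and 59.5 RPM under TuD-let-7, against 68.2 RPM in mock. The 2 endothelial miRNAs summed to 28775 and 21962 RPM, against 23746 RPM in mock, the 3 myeloid ones to 9173 and 7113 RPM, against 9878 RPM, and the 4 stromal ones to 23118 and 22708 RPM, against 19558 RPM. In TuD-let-7 the ratios to mock ran from 0.575 to 1.26 within the stromal list and from 0.561 to 0.752 within the myeloid list. In TuD-miR-122 they ran from 0.831 to 1.64 and from 0.743 to 1.29, on both sides of mock in each list. The 3 erythroid miRNAs summed to 48522 RPM under TuD-miR-122 and 30914 RPM under TuD-let-7, against 34515 RPM in mock. The 2 endothelial miRNAs differed from each other in TuD-let-7, where miR-126a-3p was at 1.08 of mock and miR-126a-5p at 0.594. The part of other cell types in the levels of the 5 miRNAs was not tested.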

How the data were processed

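The authors deposited, for each of 3 libraries, every distinct insert sequence with its raw read count; the counts are not normalised. Per the labels' protocols, RNA was extracted with the mirVana kit and gel-purified. The aligner, the build and the removal of adapters are not stated in these sources. Insert lengths were 15 to 30 nt. The 5 miRNAs and the marker lists were chosen with earlier results of these data known. Reads were compared with 1174 precursors of GENCODE M21 (GRCm38). The 5′ end of each arm was its most frequent start among untailed reads (at least 10), which gave 475 arms and 419 entries after merging on the first 22 nt. A read was assigned when it began there and matched at least 16 nt, with a tail of up to 5 nt; the longest match won and ties were kept as shared. Ratios have exact conditional-binomial intervals and shares exact Clopper-Pearson intervals; the bounds of a difference of shares join both. PCR copies count as separate reads, so intervals cover counting error only. Opposite arms were counted with starts within 2 nt. Named besides the 5 miRNAs are the opposite arms, miR-3074 and the 3 miRNAs nearest to each sum of a miR-23 and a miR-27 member. miR-126a-3p and miR-133a-5p were named after their values were seen. The alternatives were other scalings, controls, match rules, tail and trim definitions and read minimums. The counting code was tested on simulated data. Python 3.11, scipy 1.17.1, numpy 2.4.6 and matplotlib 3.10.9 were used.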

Additional observations from a re-analysis of the deposited data

How the results depend on the processing

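For single miRNAs, 65 of 70 alternative level ratios kept their direction and 48 stayed within the counting interval; for tailed shares 29 of 38 and 26 did so, and for trimmed shares 19 of 28 and 12. The b share of miR-23 and miR-27 kept its direction against mock under every alternative run, which for it were match rules and a read minimum only. The other decoy library was not used as a control for the b share. In TuD-let-7 miR-23b-3p made up 55.8% of miR-23, above the 54.1% in TuD-miR-122, with intervals that overlapped. The cause of the changes below was not tested. For the summed a pair (miR-23a-3p and miR-27a-3p), the ratio of TuD-miR-122 to mock of 1.02 became 0.991 with median-of-ratios size factors, and was 1.61 with TuD-let-7 as the control. For the summed b pair (miR-23b-3p and miR-27b-3p), 0.837 became 0.812 and 1.16. In TuD-let-7, scaling to all reads gave 0.376 for the a pair and 0.428 for the b pair, and the b pair was at 0.697 with size factors and 0.865 with TuD-miR-122 as the control.

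Pooled over the 5 miRNAs, the tailed share was -1.80 points from mock in TuD-miR-122 and -0.54 points in TuD-let-7, and tails of only A gave 1.47 and 2.04 points. The trimmed share was 1.34 points from mock in TuD-miR-122 and -0.41 points in TuD-let-7, and untailed reads alone gave -1.20 and -5.17 points. With only reads that run past the distinguishing base, TuD-let-7 gave -1.96 points for tailing and 1.17 points for trimming. With tails of only A, the tailed difference turned to 1.22, 1.68, 1.10 and 1.79 points for miR-23a-3p, miR-27a-3p, miR-23b-3p and miR-24-3p in TuD-miR-122, and to 1.36, 6.70, 3.16, -0.42 and 5.16 points for miR-23a-3p, miR-27a-3p, miR-23b-3p, miR-27b-3p and miR-24-3p in TuD-let-7. Without the 23-nt isoform with 1 uridine, a setting added once the data had been seen, the tailed difference of miR-23b-3p was -1.66 points in TuD-miR-122 and 2.84 points in TuD-let-7. The trimmed difference of miR-23b-3p was -6.13 points in TuD-miR-122 and -7.12 points in TuD-let-7 for untailed reads alone, and -0.34 points in TuD-miR-122 past the distinguishing base, where miR-23a-3p in TuD-let-7 had 1.39 points. That of miR-27a-3p in TuD-miR-122 was -0.030 points for reads under 20 nt. The number of non-target miRNAs called was 42 in TuD-miR-122 and 64 with a minimum of 20 reads. In TuD-let-7 it was 15, with 42 when scaled to all reads (4 higher, 38 lower) and 43 against TuD-miR-122 (6 higher, 37 lower).

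No paired analysis was possible because each group had 1 library. The spread between animals is unknown, and counting intervals do not cover it. TuD-let-7 was the shallowest library and limits the isoforms of miR-27a-3p most, with 797 reads.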
